A study of Rattus norvegicus with 12 samples.

Results

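Silencing of Btg2 in cultured neonatal rat ventricular cardiomyocytes was compared with a scramble siRNA control by RNA-seq, in 6 of the 12 libraries of the series (3 Btg2 knockdown and 3 scramble, all that carry those labels). The cells came from the heart ventricles of newborn (P0) wildtype Sprague-Dawley rats, were depleted of fibroblasts before plating, and were harvested 48 hours after transfection. Scramble cultures received 20 nM scramble siRNA. Btg2 knockdown cultures received 10 nM Btg2 siRNA and 10 nM scramble siRNA, so the total siRNA dose was the same in both groups. The other 6 libraries are 3 Btg1 knockdown libraries (10 nM Btg1 siRNA and 10 nM scramble siRNA) and 3 double knockdown libraries (10 nM Btg1 siRNA and 10 nM Btg2 siRNA), and they served to repeat the Btg2 siRNA contrast in cells with Btg1 partly silenced. The silencing was by a commercial siRNA whose sequence is not given in the labels, with no other Btg2 siRNA and no rescue among the groups. The labels do not say whether replicates came from separate cultures or isolations, so the p-values below measure the spread between libraries only.

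BTG2 belongs to the BTG/TOB family of antiproliferative proteins and is itself induced by p53 and by growth stimuli. It has no enzymatic activity of its own: it binds the CNOT7 and CNOT8 deadenylases of the CCR4-NOT complex and, through poly(A)-binding protein, promotes shortening of mRNA tails. In many cell types BTG1 and BTG2 restrain entry into the cell cycle, and rat ventricular cardiomyocytes leave the cycle in the days after birth.

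The siRNA lowered Btg2 mRNA to 61.5% of its scramble level. Normalised read counts of Btg2 (CPM, a share of the library total after TMM scaling) were 139.7, 131.7 and 144.4 in the scramble libraries and 82.8, 85.3 and 87.4 in the Btg2 knockdown libraries, without overlap. The log2 change was -0.70 ± 0.04 (SE, n = 3 per group; quasi-likelihood F test of edgeR, Benjamini-Hochberg adjusted p = 6.8e-11). Btg1, the closest paralog, was not called: its CPM was 285, 281 and 284 in scramble and 296, 305 and 297 after Btg2 knockdown, a log2 change of 0.08 ± 0.04 (edgeR adjusted p = 0.16). Per transcript length, in the deposited TPM (a length-scaled share of all transcripts), Btg1 was the most abundant of the 5 family members tested in the scramble libraries at 382 ± 3.27 TPM (SD, n = 3), followed by Btg2 at 109 ± 5.31, Tob1 at 75.1 ± 3.51, Btg3 at 69.4 ± 1.97 and Tob2 at 23.0 ± 0.8. After Btg2 knockdown, Btg2 was at 66.5 ± 2.76 TPM, which placed it between Tob1 at 72.2 ± 2.38 and Tob2 at 24.1 ± 1.06. Btg3 rose slightly, by 0.18 ± 0.06 on the log2 scale (edgeR adjusted p = 0.027), a call that was lost without scramble replicate 2 or 3 or without Btg2 knockdown replicate 1 or 2 (adjusted p up to 0.11). Tob1 and Tob2 changed by -0.05 and 0.07 and were not called. The plot of the targeted transcripts gives all 12 libraries.

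**Figure D1:**
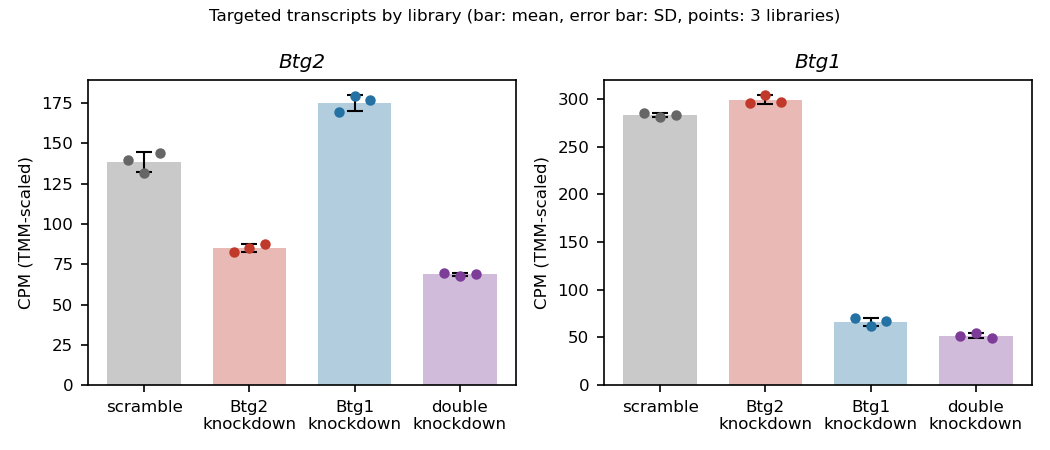
CPM of Btg2 (left) and Btg1 (right) in each of the 12 libraries, with points for libraries, bars for the mean of 3 and error bars for the SD. The 3 Btg2 knockdown libraries lie between 82.8 and 87.4 CPM for Btg2, below the scramble libraries at 131.7 to 144.4, and Btg1 stayed between 281 and 305 CPM in both groups.

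The 12 libraries held between 24434925 and 46206581 counts assigned to genes, and the lowest total belonged to Btg2 knockdown replicate 2. Of 17419 genes in the table, 12535 passed the filter on low counts and were tested in one fit of all 12 libraries. The first principal component of the 6 libraries carried 71.6% of the variance of 9768 genes and placed the scramble libraries between -11.2 and -9.05 and the Btg2 knockdown libraries between 9.52 and 10.4. All 10 cardiomyocyte markers were tested, with a summed CPM between 23873 and 24499 in scramble and between 24813 and 27635 after Btg2 knockdown. Of these 3 rose and none fell, beside 16.4% higher and 13.6% lower over all tested genes. Without scramble replicate 1 or 2 or without Btg2 knockdown replicate 2, 1 rose. The 12 fibroblast markers were also abundant, at 16587 to 17691 CPM in the same 6 libraries, although fibroblasts had been separated off before plating. Of the 7 erythroid, 8 Schwann and neuronal and 7 epicardial markers listed, 3, 4 and 6 passed the filter.

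Btg2 knockdown changed many genes by small amounts. At an adjusted p of 0.05, 3760 of the 12535 genes (30.0%) were called, of which 2051 (16.4% of all tested) were higher and 1709 (13.6%) lower, and their median absolute log2 change was 0.26. A change of at least 1.5-fold was estimated for 201 of the called rises and 175 of the called falls, and a change of at least 2-fold for 84 genes in all. With libraries scaled by total count alone, 1579 genes were higher and 2248 lower, so the share of calls that were rises went from 54.5% to 41.3%. Small changes close to the median of all genes therefore have no firm sign, whereas no called gene named by rule changed sign between the scalings.

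Among called genes averaging at least 5 CPM with separate groups, those with the largest rises came from several functional classes. Plcb2, a phospholipase C that acts downstream of G protein-coupled receptors, was at 9.98, 10.1 and 11.1 CPM in scramble and 24.6, 24.1 and 23.9 CPM after Btg2 knockdown, a 2.33-fold rise. Frmpd1, a FERM and PDZ domain protein, went from 3.60, 3.71 and 4.24 CPM to 9.18, 9.53 and 8.97 CPM, a 2.39-fold rise and the largest of the named set. Fgf23, a secreted growth factor known for its role in phosphate balance, was at 12.9, 13.4 and 13.2 CPM in scramble and at 33.2, 24.9 and 28.3 CPM after knockdown. None of these groups overlapped, and the edgeR adjusted p was 1.7e-09 for Plcb2, 9.2e-08 for Frmpd1 and 4.6e-09 for Fgf23. Secreted and matrix proteins rose as well, Vwa1 by 1.17 ± 0.10 and Ccn4, a matricellular protein of the WNT pathway, by 0.96 ± 0.08 on the log2 scale. Cnn1, a smooth muscle calponin, rose by 0.96 ± 0.07, and Lmcd1, a LIM domain cofactor that acts on GATA6 and calcineurin signalling, by 0.88 ± 0.13. The rest of the 15 were Prima1 (1.04), Lrat (1.04), Stox2 (0.95), Rab6b (0.95), Ino80d (0.94), Sytl2 (0.94), the receptor tyrosine kinase-like gene Ror1 (0.92) and the transcription factor Sox11 (0.92).

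By the same rule, the largest falls included matrix proteases, a hormone and metabolic enzymes. Stc1, which encodes the secreted glycoprotein stanniocalcin 1, fell from 117, 133 and 149 CPM to 62.6, 60.4 and 58.4 CPM, and Leprotl1, a membrane protein of endosomal trafficking, from 46.7, 52.3 and 43.4 CPM to 24, 19.9 and 20.7 CPM. Their log2 changes were -1.14 ± 0.07 and -1.13 ± 0.08 (edgeR adjusted p = 3.4e-09 and 1.4e-09). Acly, the ATP citrate lyase that supplies cytosolic acetyl-CoA for lipid synthesis, was at 261, 250 and 255 CPM in scramble and 147, 144 and 149 CPM after knockdown, with little spread within either group (-0.80 ± 0.04, edgeR adjusted p = 4.2e-12). Ugcg, the enzyme that makes glucosylceramide, fell by 0.78 on the log2 scale, the leucine catabolic enzyme Auh by 0.90, the phospholipase Pla2g6 by 1.01 and Fas, a death receptor and p53 target, by 0.94. Among the 15 falls named, Mmp13 and Mmp9, a collagenase and a gelatinase, had the largest estimates but also the largest spread. Mmp13 was at 14.7, 12.5 and 14.5 CPM in scramble and 5.04, 7.46 and 4.12 CPM after knockdown (-1.37 ± 0.38, edgeR adjusted p = 0.025). Its adjusted p passed 0.05 when any 1 of scramble replicates 1, 2 and 3 or Btg2 knockdown replicates 1 and 3 was left out (up to 0.096), and that of Mmp9 rose to 0.053 without Btg2 knockdown replicate 3. The remaining falls were Tcaim (-1.15), Ank1 (-0.88), Ptn (-0.85), Islr (-0.85), Efhd1 (-0.85) and Ocel1 (-0.82).

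**Figure D2:**
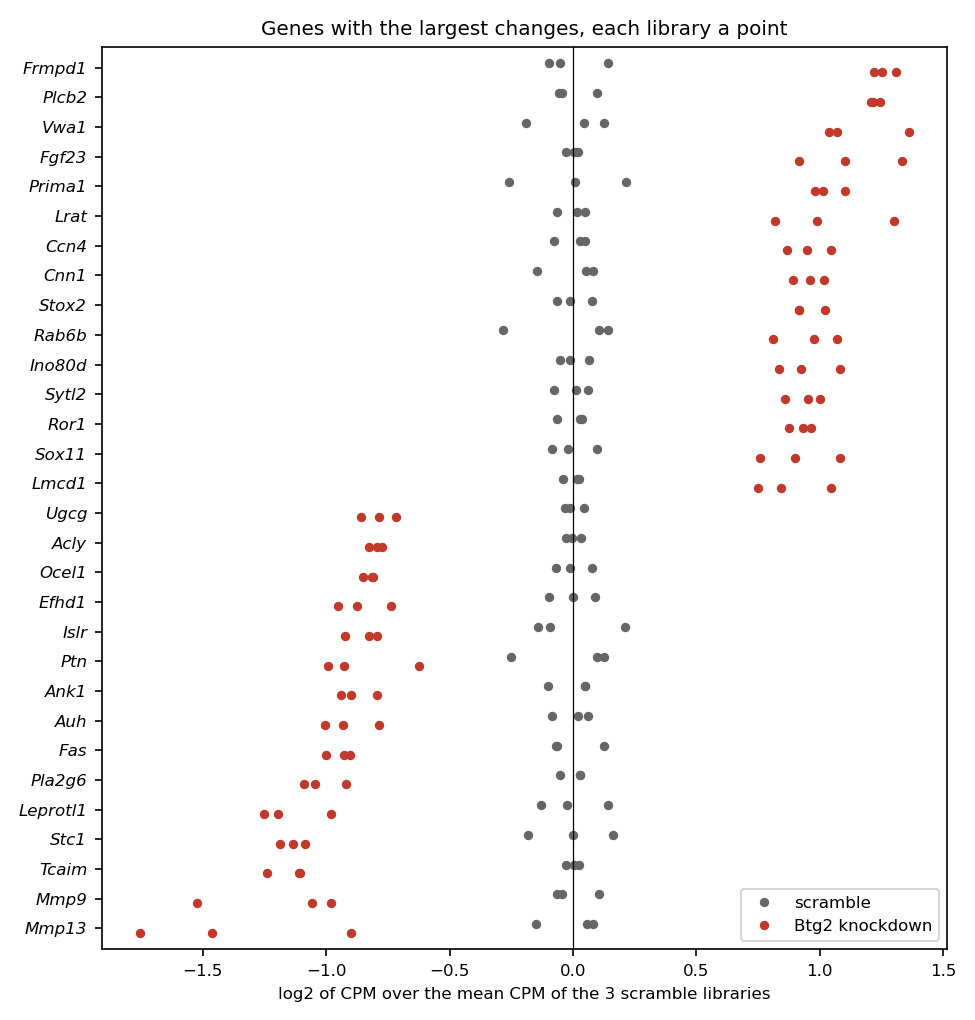
The 15 largest rises and the 15 largest falls among called genes averaging at least 5 CPM. Values are log2 of each library's CPM over the mean CPM of the 3 scramble libraries, with grey points for scramble and red points for Btg2 knockdown. The groups do not overlap for any of the 30 genes, which the choice of these genes required, and Mmp13 and Mmp9 show the widest spread after knockdown.

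Genes of the cell division cycle fell. Of 35 tested G2/M and mitosis genes, 18 fell and none rose, beside 13.6% of all tested genes called lower, and the median log2 change of the list was -0.33 beside -0.002 over all tested genes. Cdc20, the activator of the anaphase-promoting complex, was at 26.0, 27.4 and 31.0 CPM in scramble and 20.5, 21.7 and 20.9 CPM after Btg2 knockdown (-0.42 ± 0.07, edgeR adjusted p = 1.5e-04). The spindle checkpoint kinase Ttk went from 8.36, 8.89 and 11.4 CPM to 5.76, 5.82 and 6.63 CPM (-0.65 ± 0.12, edgeR adjusted p = 2.5e-04). Both groups were separate for both genes, as they were, in the lower direction, for 20 of the 35 genes beside 22.2% of all tested genes. Aurka (-0.39), Aurkb (-0.48), Bub1b (-0.56) and the mitotic cyclin Ccnb1 (-0.37) fell with them. The list's mean log2 CPM, set to 0 at the scramble mean, was -0.13, -0.02 and 0.15 in the scramble libraries, a wide spread, and -0.36, -0.25 and -0.23 after knockdown. Scramble replicate 3 and Btg2 knockdown replicate 1 lie at the far ends of that range, and without the one 10 genes were called lower, without the other 11.

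The DNA replication genes moved in the same direction. Among 40 G1/S and replication genes, 16 fell and 2 rose, beside 13.6% lower and 16.4% higher over all tested genes. The median log2 change of the list was -0.22. Cdt1, which loads the replicative helicase, was at 10.2, 11.6 and 12.5 CPM in scramble and 6.51, 7.84 and 6.53 CPM after knockdown (-0.73 ± 0.11, edgeR adjusted p = 2.0e-05). Its partner Cdc6 went from 5.39, 4.77 and 5.88 CPM to 3.26, 2.91 and 2.53 CPM (-0.88 ± 0.14, edgeR adjusted p = 6.1e-05). Ccne1, the G1/S cyclin E1, fell by 0.53, the clamp loader subunit Rfc5 by 0.51, thymidine kinase Tk1 by 0.52 and the helicase subunit Mcm2 by 0.30 on the log2 scale. The 2 genes that rose were E2f3 (0.30 ± 0.10) and the D-type cyclin Ccnd2 (0.13 ± 0.05), and neither was called with libraries scaled by total count alone. Both were named after their values were seen. Without Btg2 knockdown replicate 1, 10 genes of this list were called lower and none higher. Among 9 CDK inhibitors and pocket proteins, Cdkn1c rose by 0.21 and none fell, and this call was lost without scramble replicate 3 or Btg2 knockdown replicate 1, with limma on TPM and with an offset for gene length in the fit (0.13). In bulk RNA a smaller share of dividing cells and less of these transcripts per cell cannot be told apart.

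Promoters of the mitotic genes are shown because cell cycle-dependent transcription of this class is known to act through a CCAAT box and the CHR element (TTTGAA), bound by NF-Y and by the DREAM and MMB complexes. RefSeq promoter sequences of the GRCr8 build were matched by symbol for 9410 of the 12535 tested genes and for 28 of the 35 G2/M genes. In the 250 bases before the annotated start, on either strand, CCAAT was present in 34.9% of the 9410 promoters and in 22 of the 28, and TTTGAA in 10.1% and in 13 of the 28. The motifs did not mark the genes that were called: TTTGAA was in 6 of 15 G2/M promoters of genes called lower and in 7 of 13 of those not called. The last 150 bases before the start of 4 called genes that hold both motifs in the 250 bases follow, 5′ to 3′ on the gene's strand, with each CCAAT or TTTGAA, or its reverse complement, in capitals. Cdc20 is at chr5:137255800-137255949 (minus strand), Cdk1 at chr20:19265143-19265292 (plus strand), Top2a at chr10:84473094-84473243 (minus strand) and Birc5 at chr10:103571996-103572145 (plus strand). These genes were chosen after their values were seen.
Cdc20: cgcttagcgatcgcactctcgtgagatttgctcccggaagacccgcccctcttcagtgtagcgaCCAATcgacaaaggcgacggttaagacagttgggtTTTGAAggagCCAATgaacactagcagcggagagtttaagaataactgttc
Cdk1: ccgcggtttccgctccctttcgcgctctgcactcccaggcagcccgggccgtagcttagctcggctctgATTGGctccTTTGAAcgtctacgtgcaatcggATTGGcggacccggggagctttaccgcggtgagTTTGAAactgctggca
Top2a: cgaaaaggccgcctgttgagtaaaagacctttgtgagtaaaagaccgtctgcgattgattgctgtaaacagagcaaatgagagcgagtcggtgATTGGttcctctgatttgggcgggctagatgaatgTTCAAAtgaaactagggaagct
Birc5: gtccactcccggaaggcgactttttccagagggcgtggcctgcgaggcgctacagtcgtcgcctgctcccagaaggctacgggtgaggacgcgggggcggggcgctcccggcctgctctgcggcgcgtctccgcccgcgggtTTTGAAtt
Cdk1, the mitotic kinase, fell by 0.37, the topoisomerase Top2a by 0.33 and the survivin gene Birc5 by 0.56 on the log2 scale.

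Transcripts that mark cardiomyocyte hypertrophy rose. Of 8 hypertrophic markers 6 rose and none fell, beside 16.4% higher and 13.6% lower over all tested genes, with a median log2 change of 0.36. The groups did not overlap, in the higher direction, for any of the 8, beside 23.5% of all tested genes. Myh7, the slow beta myosin heavy chain of the fetal and stressed ventricle, was at 5248, 5336 and 5486 CPM in scramble and 7506, 8064 and 7497 CPM after Btg2 knockdown (0.52 ± 0.05, edgeR adjusted p = 2.8e-08). The natriuretic peptide gene Nppa went from 2002.5, 1998 and 2149 CPM to 2525, 2988 and 2375 CPM (0.36 ± 0.08, edgeR adjusted p = 0.0054). Nppb, its relative, went from 1071, 1039 and 1093 CPM to 1288, 1452 and 1204 CPM (0.30 ± 0.09, edgeR adjusted p = 0.019). For Nppa and Nppb the highest library was Btg2 knockdown replicate 2, which is also the shallowest, and without it the adjusted p for Nppb was 0.057. The call of Nppb was also lost without scramble replicate 2 (0.065) and with no filter on low counts (0.054). Ankrd1, a stretch-responsive cofactor, rose by 0.44 ± 0.06, and Rcan1, a feedback inhibitor and reporter of calcineurin activity, by 0.36 ± 0.05. Xirp2 had a change of 0.52 ± 0.15 (edgeR adjusted p = 0.031), and the adjusted p lay between 0.064 and 0.096 when scramble replicate 1, 2 or 3 or Btg2 knockdown replicate 2 or 3 was left out. It was 0.057 with the replicate number as a block and 0.094 with the offset for gene length. Acta1 and Fhl1 were at 0.31 and 0.21 and were not called.

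The sarcomere lists moved the same way by less. Counts in this paragraph stand beside 16.4% higher and 13.6% lower over all tested genes. Some lists share members with the hypertrophic list, such as Myh7 (thick filament) and Ankrd1 (Z-disc), so their counts are not separate. Of 12 thick filament and myosin genes 7 rose and 1 fell (median log2 change 0.18). The atrial light chains Myl4 and Myl7 both rose by 0.38, the M-band gene Myom2 by 0.66 and the myosin-binding protein Mybpc2 by 0.33 on the log2 scale. Of 16 Z-disc and stretch response genes 9 rose and 1 fell, among them Pdlim3 (0.37), Pdlim5 (0.33), Synpo2l (0.26), Flnc (0.21) and Csrp3 (0.31). Of 13 thin filament genes 4 rose, led by Nebl (0.44) and Tpm3 (0.24). That count was 2 without scramble replicate 1 or 2 or without Btg2 knockdown replicate 2. Of 11 intercalated disc genes 5 rose and none fell, including the tight junction scaffold Tjp1 (0.27), the desmosomal Pkp2 (0.28), N-cadherin Cdh2 (0.21) and connexin 43, Gja1 (0.17). Among 16 cardiac transcription factors 6 rose and none fell: Myocd, the coactivator of serum response factor, went from 42.5, 39.8 and 45.2 CPM to 64.2, 61.4 and 70.5 CPM (0.63 ± 0.06, edgeR adjusted p = 3.1e-08), and Tbx20 (0.52), Prox1 (0.53), Mef2a (0.33), Gata4 (0.14) and Mef2d (0.15) rose as well. Calcium handling was mixed, with 5 of 17 genes higher and 4 lower. Within it the sodium-calcium exchanger Slc8a1 (0.42), the ryanodine receptor Ryr2 (0.31), the calcium pump Atp2a2 (0.23) and the channel subunits Cacna2d1 (0.51) and Cacnb2 (0.37) rose, while Jph2, which holds the T-tubule to the sarcoplasmic reticulum, fell from 222, 267 and 241 CPM to 185, 164 and 167 CPM (-0.50 ± 0.07). With an offset for gene length in the fit, Ryr2 (0.07), Atp2a2 (0.06) and Flnc (0.09) were no longer called and Slc8a1 was at 0.13, Synpo2l at 0.14 and Tjp1 at 0.17. The call of Mef2d was lost without scramble replicate 2 and with libraries scaled by total count alone. Of 18 sodium and potassium channel and pacemaker genes 5 rose and 4 fell, with the repolarizing current subunit Kcnip2 at -1.02 ± 0.17, at low counts (4.60 to 5.86 CPM in scramble) and at -0.37 with limma on log2(TPM + 1).

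**Figure D3:**
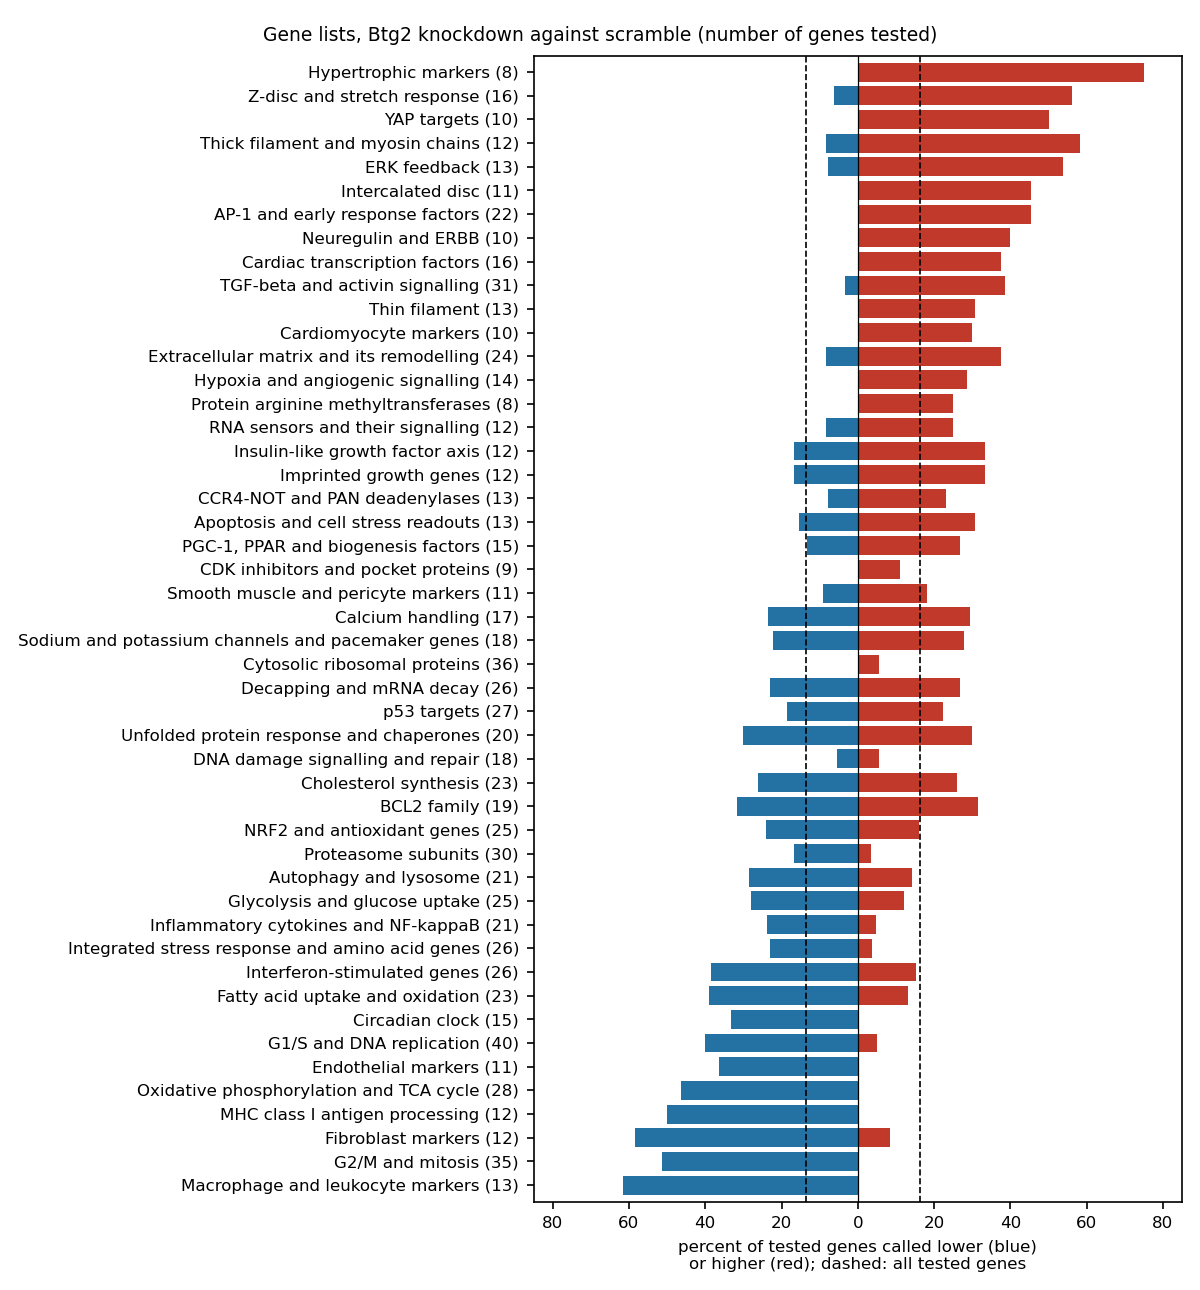
For each gene list with at least 8 tested genes, the percent of tested genes called higher (red, to the right) or lower (blue, to the left) after Btg2 knockdown, with dashed lines at 16.4% higher and 13.6% lower over all tested genes. Hypertrophic markers and Z-disc genes stand at the upper end and macrophage markers and G2/M genes at the lower end.

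Among growth factor and stress-responsive signalling genes, more were called higher than lower in each list, beside 16.4% higher and 13.6% lower over all tested genes. Of 22 AP-1 and early response factors 10 rose and none fell, with a median log2 change of 0.17. Atf3, a stress-induced bZIP factor, was at 36.0, 34.2 and 33.7 CPM in scramble and 45.3, 55.9 and 48.5 CPM after Btg2 knockdown (0.52 ± 0.07, edgeR adjusted p = 5.3e-06). Fos went from 10.4, 11.0 and 10.7 CPM to 13.8, 15.2 and 14.9 CPM (0.45 ± 0.08, edgeR adjusted p = 2.3e-04). Nr4a1 (0.44), Fosl1 (0.45), Egr1 (0.28) and Klf6 (0.23) also rose, and 6 genes of the list were called higher without scramble replicate 3. The ERK feedback list, negative regulators that ERK signalling induces, had 7 of 13 genes higher and 1 lower and a median of 0.26. Spry4 went from 62.5, 62.9 and 63.2 CPM to 97.4, 91.1 and 94.3 CPM (0.59 ± 0.05, edgeR adjusted p = 3.2e-09), and the ERK phosphatase Dusp4 from 19.3, 21.4 and 21.3 CPM to 33.6, 29.2 and 31.7 CPM (0.61 ± 0.07, edgeR adjusted p = 5.5e-07). Dusp6 (0.26), Dusp8 (0.34), Spred1 (0.31) and Spred2 (0.34) rose with them, and Spry1 fell by 0.28, a gene named after its value was seen.

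Ligands and receptors of the TGF-beta superfamily and of the ERBB family followed, beside 16.4% higher and 13.6% lower over all tested genes. In the TGF-beta and activin list 12 of 31 rose and 1 fell (median log2 change 0.13). The inhibin alpha subunit Inha was at 48.0, 47.7 and 51.1 CPM in scramble and 71.1, 70.4 and 73.7 CPM after knockdown (0.55 ± 0.04, edgeR adjusted p = 4.0e-09). Receptors rose together: the BMP receptors Bmpr1a (0.39) and Bmpr2 (0.42), the TGF-beta receptor Tgfbr2 (0.31) and the activin receptors Acvr1b (0.31) and Acvr2b (0.86 ± 0.17, at 2.00 to 2.19 CPM in scramble). Of 10 neuregulin and ERBB genes 4 rose and none fell. Erbb4, the neuregulin receptor of cardiomyocytes, went from 5.15, 5.31 and 5.49 CPM to 8.38, 9.57 and 8.41 CPM (0.72 ± 0.11, edgeR adjusted p = 2.4e-05), and the ligand Ereg from 3.69, 3.51 and 2.63 CPM to 6.15, 6.07 and 5.16 CPM (0.82 ± 0.15). The count fell to 2 when scramble replicate 1 or 3 or Btg2 knockdown replicate 2 or 3 was left out. Of 10 YAP target and pathway genes 5 rose and none fell, among them Tead1 (0.48), Ccn1 (0.35) and Nuak2 (0.31). In the insulin-like growth factor list 4 of 12 rose and 2 fell, with a median log2 change of -0.02. The receptors Igf2r (0.46) and Insr (0.53) and the adaptors Irs1 (0.41) and Irs2 (0.31) rose, and the binding proteins Igfbp6 (-0.51) and Igfbp3 (-0.40) fell. Of 24 extracellular matrix genes 9 rose and 2 fell, led by the laminin chain Lamc1 (0.45), the protease inhibitor Timp3 (0.38) and Adamts1 (0.33), with elastin, Eln (-0.28), and Col6a2 (-0.25) as the falls.

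Mitochondrial enzyme genes were slightly lower. Of 28 oxidative phosphorylation and TCA cycle genes 13 fell and none rose, beside 13.6% lower and 16.4% higher over all tested genes. The median log2 change of the list was only -0.09. Ndufa4, a small subunit of cytochrome c oxidase, stood out with 371, 380 and 354 CPM in scramble and 240, 239 and 219 CPM after knockdown (-0.66 ± 0.05, edgeR adjusted p = 1.2e-09). Fumarase, Fh, fell by 0.36, and the succinate dehydrogenase subunits Sdhd and Sdhb by 0.23 and 0.17 on the log2 scale. In the fatty acid list 9 of 23 genes fell and 3 rose. Those that fell included Acads, Eci1, Cpt2, Hadh and the fatty acid transporter Cd36, by between 0.18 and 0.25, whereas the mitochondrial import enzyme Cpt1a rose by 0.26. Among 25 glycolytic genes 7 fell and 3 rose, with the pyruvate dehydrogenase kinase Pdk2 at -0.68 ± 0.05, muscle Pgam2 at -0.63, the insulin-responsive transporter Slc2a4 at -0.40 and Pfkfb3 at 0.48.

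Genes of the mRNA decay machinery that BTG2 works with were called in both directions. Of 13 CCR4-NOT and PAN deadenylase genes 3 rose and 1 fell (median log2 change 0.02). These counts are near the 16.4% higher and 13.6% lower over all tested genes. The scaffold Cnot1 (0.15), Cnot6 (0.22) and Cnot6l (0.24) rose and Cnot9 (-0.27) fell, and Cnot7 was at 0.14 and not called. Cnot6l had an adjusted p between 0.071 and 0.13 without scramble replicate 1 or 2 or Btg2 knockdown replicate 2 or 3, and was also not called with libraries scaled by total count alone, with limma on TPM or with an offset for gene length in the fit. Cnot1 was at 0.04 and not called with that offset. Of 26 decapping and decay genes 7 rose and 6 fell, beside 16.4% higher and 13.6% lower over all tested genes. Pabpc1, the cytoplasmic poly(A)-binding protein, went from 790, 806 and 793 CPM to 553, 594 and 552 CPM (-0.49 ± 0.04, edgeR adjusted p = 2.9e-09), the smallest p of that list, while Xrn1 (0.35), Ddx6 (0.34), Patl1 (0.26), Dcp1a (0.34) and Zfp36 (0.27) rose.

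More genes fell than rose in the MHC class I, interferon and inflammatory lists, beside 16.4% higher and 13.6% lower over all tested genes. Of 12 genes of MHC class I antigen processing 6 fell and none rose (median log2 change -0.15), among them the class I chains RT1-A2 (-0.25) and RT1-A1 (-0.23), whose near-identical sequences can split reads, Tapbp (-0.20) and B2m (-0.19). The count was 3, without B2m, when scramble replicate 1 or Btg2 knockdown replicate 3 was left out. Of 26 interferon-stimulated genes 10 fell and 4 rose: Irf7 went from 600, 602 and 596 CPM to 498, 462 and 471 CPM (-0.33 ± 0.04, edgeR adjusted p = 5.0e-06) and Oas1a fell by 0.31, while Rsad2 rose by 0.31 and Cmpk2 by 0.22. Without Btg2 knockdown replicate 1 the counts were 6 lower and 4 higher, and without scramble replicate 1 or Btg2 knockdown replicate 2 they were 7 and 2. Of 21 inflammatory genes 5 fell and 1 rose, including Cxcl12 (-0.38) and Vcam1 (-0.29) against Lif (0.44), whose call was lost without scramble replicate 2 or 3 or Btg2 knockdown replicate 1 or 2 and with no filter. In the circadian clock list 5 of 15 fell and none rose, with the output genes Dbp (-0.46), Nr1d1 (-0.36) and Ciart (-0.60). That count was 3 without scramble replicate 1 or Btg2 knockdown replicate 1. The p53 target list was mixed, at 6 higher and 5 lower of 27, as was the BCL2 family at 6 and 6 of 19, where proapoptotic Bid (-0.51) fell and Mcl1 (0.22) rose. Among 12 RNA sensor genes 3 rose and 1 fell.

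The other lists showed no single direction or few calls, beside 16.4% higher and 13.6% lower over all tested genes. Of 23 cholesterol synthesis genes 6 rose and 6 fell, and of 20 genes of the unfolded protein response 6 rose and 6 fell. The NRF2 list had 4 higher and 6 lower of 25, with the sulfiredoxin Srxn1 at -0.55 and the glutathione synthesis enzyme Gclc at 0.34. Of 26 integrated stress response genes 6 fell and 1 rose, including Atf5 (-0.26) and Ddit3 (-0.30), and of 21 autophagy and lysosome genes 6 fell and 3 rose. Among 15 regulators of mitochondrial biogenesis 4 rose and 2 fell, with Esrrg (0.51) and Ppargc1b (0.49) against Ppard (-0.61). Of 12 imprinted growth genes 4 rose and 2 fell, led by the zinc finger gene Plagl1, which went from 120, 101 and 112 CPM to 197, 185 and 194 CPM (0.80 ± 0.06, edgeR adjusted p = 1.9e-09). The hypoxia list had 4 higher and none lower of 14, the arginine methyltransferases 2 and none of 8, the cell stress readouts 4 and 2 of 13, the Meis and Pbx factors 1 and 2 of 6, and the DNA damage list 1 and 1 of 18. Leaving out a single library moved at least one of these counts by over 1.5 times for the p53, BCL2, stress response, autophagy, imprinted, hypoxia, methyltransferase, stress readout, Meis and Pbx, and DNA damage lists.

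Markers of some other cell types in the cultures also moved, beside 16.4% higher and 13.6% lower over all tested genes. Of 13 macrophage and leukocyte markers 8 fell and none rose, and the summed level of the list was 57.1 to 67.3 CPM in scramble and 43.5 to 45.4 CPM after Btg2 knockdown. Cd68 went from 14.6, 17.6 and 15.0 CPM to 10.0, 10.6 and 9.59 CPM (-0.65 ± 0.10, edgeR adjusted p = 2.2e-05), while Ptprc, which encodes the pan-leukocyte antigen CD45, was at 1.91 to 2.64 CPM in scramble and 1.73 to 2.38 CPM after knockdown. The count was 5 without scramble replicate 1 or 2 or without Btg2 knockdown replicate 2. Of 12 fibroblast markers 7 fell and 1 rose, among them Pdgfra (-0.33), Tcf21 (-0.33) and Lum (-0.19) against Vim (0.28), although the summed level stayed between 16587 and 17239 CPM in scramble and 16692 and 17691 CPM after knockdown. Of 11 endothelial markers 4 fell and none rose, with the VEGF receptor Kdr at -0.48 ± 0.07, and a summed level of 129 to 137 CPM in scramble and 112 to 121 CPM after knockdown. That count was 1 without scramble replicate 2 or Btg2 knockdown replicate 3. Of 11 smooth muscle and pericyte markers 2 rose and 1 fell, and of 6 epicardial markers 2 rose and 1 fell. None of the 4 Schwann cell and neuronal or the 3 erythroid markers tested was called, the latter at a summed 1.71 to 2.57 CPM. No tested marker was at 0 in every library of either group. The share of these shifts in the cell cycle, immune and matrix results was not tested.

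**Figure D4:**
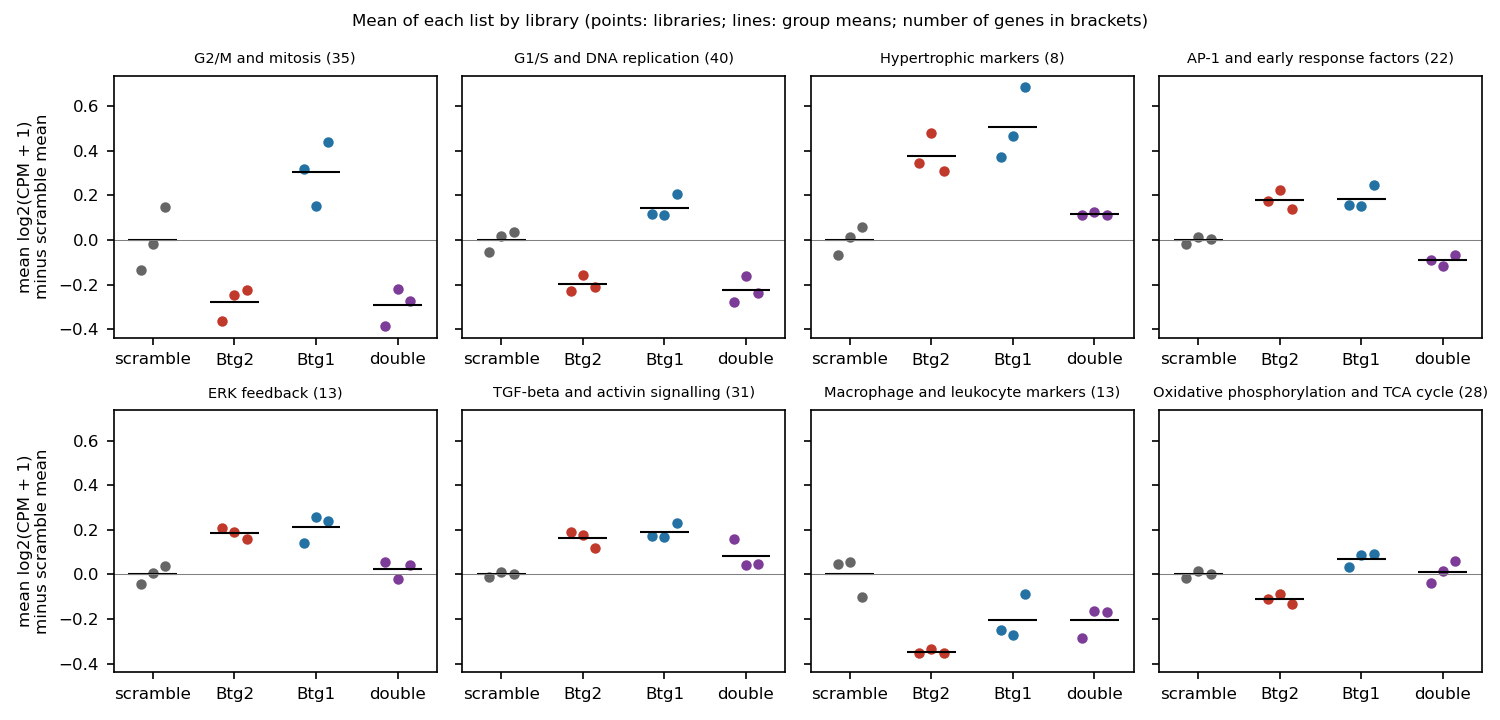
Mean log2(CPM + 1) of 8 gene lists in each of the 12 libraries, set to 0 at the mean of the 3 scramble libraries, with points for libraries and lines for group means. G2/M, macrophage and mitochondrial lists are lower in the Btg2 knockdown libraries than in scramble and the hypertrophic, AP-1, ERK feedback and TGF-beta lists are higher.

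Long genes rose and short genes fell more often than the reverse. Gene length was taken, for 12532 genes, from the ratio of CPM, computed from the deposited counts, to the deposited TPM. Over these genes the log2 change after Btg2 knockdown had a Spearman rho of 0.21 with gene length. This rho is given as a description across genes that share libraries. With the genes in 5 equal bins of length, 7.06% were called higher and 17.9% lower in the shortest bin, and 31.4% higher and 9.01% lower in the longest. The median log2 CPM of the longest bin, set to the scramble mean, was 0.07, 0.09 and 0.10 in the Btg2 knockdown libraries and between -0.01 and 0.01 in the scramble libraries. In the Btg1 siRNA background the same siRNA gave a rho of 0.03. An offset for length in the fit, added after seeing the data, left 3545 genes called, 1854 higher and 1691 lower, and 3069 of the 3760 calls stood in the same direction. The mitochondrial list holds 15 of its 28 genes in the shortest bin and none in the longest. With the offset the cytosolic ribosomal proteins, mostly short genes, went from 2 of 36 higher to 13 of 36, the proteasome subunits from 5 of 30 lower to 1, and the Z-disc list from 9 of 16 higher to 7. Sdhb was at -0.10 with the offset. Whether RNA quality, amplification or the cells account for the length relation was not tested.

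**Figure D5:**
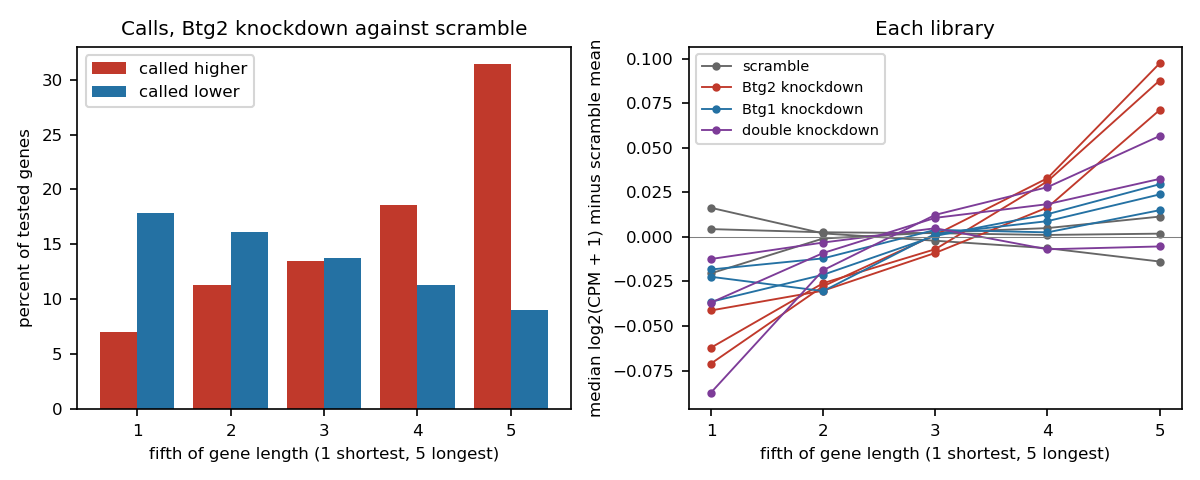
Left, percent of tested genes called higher (red) or lower (blue) after Btg2 knockdown in each of 5 equal bins of gene length, from 7.06% higher and 17.9% lower in the shortest to 31.4% and 9.01% in the longest. Right, the median log2(CPM + 1) of each bin in each of the 12 libraries, set to 0 at the scramble mean, where the 3 Btg2 knockdown libraries are the highest in the longest bin.

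The same siRNA was given to cells that also received Btg1 siRNA, which asks how far the response repeats in the other 6 libraries. They entered the same fit but were not part of the contrast against scramble. There Btg2 fell from 169.8, 179.4 and 177.0 CPM with Btg1 siRNA alone to 69.6, 67.6 and 68.8 CPM with both, a log2 change of -1.35, deeper than against scramble by 0.65 ± 0.06 (edgeR adjusted p for the difference = 1.4e-07). Btg1 also differed, with a log2 change of -0.36 in this background. In that contrast 1297 genes (10.3%) were higher and 1494 (11.9%) lower. Of the 2051 genes that rose against scramble, 563 (27.5%, and 43.4% of the 1297) rose here too, 250 (12.2%) fell and 1238 were not called. Of the 1709 that fell, 538 (31.5%, and 36.0% of the 1494) fell here too, 36 (2.11%) rose and 1135 were not called. The log2 changes in the 2 backgrounds, which share no library, had a Pearson r of 0.21 and a Spearman rho of 0.24 over the 12535 genes. The replicated falls included Stc1 (-1.09), Leprotl1 (-1.18), Tcaim (-1.23), Acly (-0.67), Ugcg (-0.87) and Auh (-0.77), and the replicated rises Plcb2 (1.07), Frmpd1 (1.28), Prima1 (0.94) and Sytl2 (0.74). Of the 15 largest falls 11 were called lower again and none higher, and of the 15 largest rises 9 were called higher again and 2 lower. Ndufa4 (-0.61) and Pabpc1 (-0.43) also fell again.

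The cell cycle genes fell in both backgrounds and the hypertrophic and signalling genes did not rise in both. With Btg1 silenced, 33 of the 35 G2/M genes and 29 of the 40 G1/S genes fell on addition of Btg2 siRNA, with medians of -0.72 and -0.35. None of the 8 hypertrophic markers rose and 3 fell (median -0.25), and none of the 22 AP-1 genes rose and 12 fell (median -0.26). Of the 13 ERK feedback genes 1 rose and 7 fell, and of the 16 Z-disc genes none rose and 10 fell. The falls of 2 other lists did not repeat: 2 of 13 macrophage and leukocyte markers and 3 of 12 MHC class I genes rose, and none fell. Of 28 oxidative phosphorylation and TCA cycle genes 3 fell and none rose. Of 26 interferon-stimulated genes 6 fell, and of 11 endothelial markers 4 fell, with none higher in either list. The difference between the backgrounds was called for 1890 genes (15.1%), among them all 8 hypertrophic markers, 14 of the AP-1 list, 12 of the Z-disc list and 8 of the ERK feedback list, each with the lower change under Btg1 siRNA. In the G2/M list 10 genes differed too, with the deeper fall under Btg1 siRNA, from a higher starting level. The list's mean log2 CPM, set to 0 at the scramble mean, was 0.32, 0.15 and 0.44 with Btg1 siRNA alone. It was -0.39, -0.22 and -0.27 with both siRNAs, beside -0.36, -0.25 and -0.23 with Btg2 siRNA and no Btg1 siRNA. For Nppa the difference was -0.58 ± 0.12 and for Myh7 -0.55 ± 0.07 (edgeR adjusted p = 0.0047 and 6.1e-06). By level, Nppa was at 2235, 2479 and 2784 CPM with Btg1 siRNA alone, above the scramble libraries, and at 2082, 2139 and 2207 CPM with both siRNAs. Myh7 was at 4703, 4853 and 5138 CPM with Btg1 siRNA alone and 4605, 4796 and 5051 CPM with both, a log2 change of -0.02 that was not called.

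The 8 largest differences between the backgrounds were chosen by size among genes called both for the difference and against scramble, at 5 CPM or more. A call against scramble was thus required, but not its direction. All 8 were higher against scramble and called lower under Btg1 siRNA. The call against scramble was unsteady for Creb5 and, as given above, Xirp2. Creb5, a bZIP factor, was at 6.56, 8.36 and 7.29 CPM in scramble and 8.94, 11.3 and 9.59 CPM with Btg2 siRNA, against 21.0, 18.4 and 26.1 CPM with Btg1 siRNA and 8.76, 9.54 and 8.91 CPM with both. Its difference of the log2 changes was -1.68 ± 0.17 (edgeR adjusted p = 8.5e-07), and its rise against scramble, at 0.41, had an adjusted p of 0.088 without Btg2 knockdown replicate 2, 0.090 without scramble replicate 1 and 0.052 without scramble replicate 3. Mib1, a ubiquitin ligase of Notch ligands, went from 32.1, 33.3 and 31.6 CPM to 61.6, 57.6 and 55.5 CPM on the scramble background and from 50.3, 44.8 and 51.7 CPM to 36.8, 38.6 and 35.1 CPM on the Btg1 siRNA background. Ankrd23 (-1.62), Xirp2 (-1.58), Ino80d (-1.50), Lpp (-1.46), Prrg4 (-1.32) and the sphingosine 1-phosphate receptor S1pr1 (-1.25) showed the same crossing.

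Set directly against each other, the single knockdowns differed at 5120 genes (40.8%), 2580 higher and 2540 lower with Btg2 siRNA than with Btg1 siRNA. Besides Btg1 itself (2.18), the retinol acyltransferase Lrat (2.31), Brinp2 (2.24), the sodium-proton exchanger Slc9a3 (2.20) and Frmpd1 (2.02) had the largest positive log2 differences. All but Btg1 rose against scramble after Btg2 knockdown. Snap91 (-1.57), Abcb9 (-1.49), Asb4 (-1.44) and Sypl2 (-1.38) were among the largest negative ones, and none of these 4 was called after Btg2 knockdown against scramble.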

How the data were processed

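RNA from 12 cultures of neonatal rat ventricular cardiomyocytes (4 groups of 3) was, per the labels' protocols, amplified with the Ovation kit, made into Nextera XT libraries and sequenced paired-end on an Illumina HiSeq 2500. Tools listed, per the submitters' processing notes and without versions, are STAR, featureCounts, FastQC, cutadapt and Trim Galore, with the rn5 build. Counting options, strand setting and annotation remain not given in the sources used here. Raw read counts per gene and TPM values per gene were deposited by the authors as tables. Without the strand setting, reads of overlapping and antisense genes cannot be told apart.

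Groups were taken from the labels. Counts were tested with edgeR 4.0.16 in R 4.3.3 (filterByExpr, TMM scaling, robust quasi-likelihood F test, Benjamini-Hochberg over all 12535 genes, adjusted p under 0.05) in one fit of all 12 libraries with 1 mean per group. Library totals of 24434925 to 46206581 counts make 1 count worth 0.0213 to 0.0422 CPM. The deposited TPM values were used for levels between genes and, with limma 3.58.1 on log2(TPM + 1) and log2(TPM + 0.1), as an alternative, where the pseudocount understates changes of low genes. DESeq2 1.42.0, other scalings and filters, only the groups compared, a replicate block, a length offset and leaving out each library were the other alternatives. The test was checked on simulated data.

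Named genes were Btg1 and Btg2, the 15 largest rises and falls among called genes of at least 5 CPM with separate groups and an established symbol, the 8 largest differences between backgrounds, the 5 largest each way between the single knockdowns, and from each of 53 gene lists the 6 members of smallest p (all members of the BTG/TOB and marker lists), and a few genes that these rules name are not reported here. The 8 differences were picked among genes also called against scramble, at 5 CPM or more over the 12 libraries. The comparison, lists and rules were chosen with earlier results of these data known. Promoters came from RefSeq on GRCr8, used for sequence only, since the reads were mapped to rn5.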

Additional observations from a re-analysis of the deposited data

Results flagged for a closer look

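For the genes below the response to the Btg2 siRNA differed between the Btg1 siRNA background and the scramble background, by the edgeR test of the difference itself. Values are differences of log2 changes, Btg1 siRNA background minus scramble background. A negative value is a smaller rise, a deeper fall or a fall in place of a rise under Btg1 siRNA. A positive value is a larger rise, a shallower fall or a rise in place of a fall.

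Among the targeted genes, Btg2 itself differed by -0.65 (adjusted p = 1.4e-07) and Btg1 by -0.437 (adjusted p = 2.9e-05). Among genes of at least 5 CPM called for the difference and against scramble, the largest differences were those of Creb5 (-1.68), Ankrd23 (-1.62), Xirp2 (-1.58), Ino80d (-1.5), Lpp (-1.46), Prrg4 (-1.32), Mib1 (-1.26) and S1pr1 (-1.25). Of the 15 largest rises against scramble 9 differed, including Ino80d above. All had the lower log2 change under Btg1 siRNA, the others being Cnn1 (-1.21), Lmcd1 (-1.11), Stox2 (-1.01), Sox11 (-0.795), Ror1 (-0.737), Fgf23 (-0.73), Vwa1 (-0.693) and Ccn4 (-0.613). Among the 15 largest rises, 2 were called lower under Btg1 siRNA. Of the 15 largest falls 5 differed, all with the higher log2 change under Btg1 siRNA: Ank1 (0.373), Pla2g6 (0.401), Fas (0.423), Ptn (0.714) and Efhd1 (1.12). None of the 15 largest falls was called higher under Btg1 siRNA. The largest rises and falls were picked for their size against scramble, and the libraries used for that choice also enter the difference.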

How the results depend on the processing

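Counts of calls stayed within 1.5 times of the reported ones for all 4 contrasts under every alternative run. For Btg2 knockdown against scramble they were 3780 with DESeq2, 3325 and 3344 with limma on TPM, 4325 with only the 6 libraries compared and 2836 to 3299 with 1 library left out. The difference between backgrounds gave 1325 to 1850 calls with 1 library left out. Same-numbered replicates did not deviate together (correlations of -0.02, -0.12 and 0.19 between scramble and Btg2 knockdown), so the numbers were not taken to pair samples, and a replicate block gave 3650 calls, 1989 higher and 1661 lower. Of 512 values for the 32 targeted and most changed genes under the alternatives, 505 kept direction and side of the threshold, 6 lost the call (5 of Mmp13, 1 of Mmp9, each with 1 library left out) and Btg1 passed it with the length offset (0.12). Over all 373 named genes, 248 of 5958 values under the alternatives lost the call and 73 gained it. Of the 291 called genes 1 changed sign: Vegfa was -0.0133 with the length offset, and the cause was not tested. Of the 82 not called, 22 changed sign under at least 1 alternative, 7 of them with libraries scaled by total count alone. Spread between 3 libraries limits what could be called among small changes, and genes near the filter have few counts.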
